A study of Mus musculus with 12 samples.

Results

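The genes described here are the chains of collagen and laminin, the 2 main protein families of the extracellular matrix. They were taken as the protein-coding genes whose symbol is Col, a number, a and a number, or Lam, a letter from a to c and a number. The rule found 55 genes, 44 collagen and 11 laminin chains, among 35509 genes in the table. The RNA came from the distal Fallopian tube (oviduct) of 6 mice that were 4 weeks old, untreated and on a mixed background. All of them carried the MADM RG;GR alleles, which mark a recombined cell and its descendants with fluorescent colours, so that a clone and its size can be seen in tissue. Each mouse gave 1 library from its large clones and 1 from its small clones, each a pool of 200 cells cut out with a laser, so the comparison was between 6 libraries of large and 6 of small clones. The mice are called wildtype in the labels, and no mutant or treated group was part of the series. A pool of this kind averages over many clones, and the size that separates large from small clones, the driver of recombination and the cell type of the clones are not given in the sources used here.

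Epithelia rest on a basement membrane, a sheet built mainly of laminin and collagen IV. A laminin molecule holds 1 alpha, 1 beta and 1 gamma chain, and receptors on the basal face of epithelial cells bind it. Fibrillar collagens such as collagen I and III form the fibres of the connective tissue underneath and are made mostly by fibroblasts, while collagen VI forms beaded filaments between the fibres and the basement membrane. In a cut-out epithelial clone, fibrillar chains are therefore usually read as a sign of adjoining stroma, and in bulk samples fewer cells of a type and less RNA per cell cannot be told apart.

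Start regions of 4 members are shown because these genes set libraries apart below. Col6a3 and Col15a1 had their highest level by far in 1 library. Lamb2 and Col25a1 divided the libraries into the same sets as the share of counts on genes of odour, pheromone and taste receptors. The sequences are RefSeq's, build GRCm38.p6, read 5′ to 3′ on the gene's strand, and for all but Lamb2 they end at the base before the start. They lie for Col6a3 at chr1:90843972-90844221 (minus strand), Col25a1 at chr3:130180595-130180844 (plus), Col15a1 at chr4:47207762-47208011 (plus) and Lamb2 at chr9:108479612-108479735 (plus). The Lamb2 stretch keeps only the 124 bases farthest from the start, so that it holds no annotated exon. Capitals mark matches to the TATA box, spelled TATAAA, the CCAAT box, spelled by its name, or the GC box, spelled GGGCGG, on either strand.
Col6a3: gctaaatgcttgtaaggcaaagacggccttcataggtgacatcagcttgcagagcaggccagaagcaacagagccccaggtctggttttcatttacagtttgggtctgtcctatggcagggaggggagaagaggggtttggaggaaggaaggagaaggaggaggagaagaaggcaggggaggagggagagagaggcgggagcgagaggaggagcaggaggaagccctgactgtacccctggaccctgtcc
Col15a1: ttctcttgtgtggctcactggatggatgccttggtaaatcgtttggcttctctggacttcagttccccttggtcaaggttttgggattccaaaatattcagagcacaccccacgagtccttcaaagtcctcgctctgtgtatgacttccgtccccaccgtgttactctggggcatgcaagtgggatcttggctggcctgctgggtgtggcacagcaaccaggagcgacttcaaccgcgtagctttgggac
Lamb2: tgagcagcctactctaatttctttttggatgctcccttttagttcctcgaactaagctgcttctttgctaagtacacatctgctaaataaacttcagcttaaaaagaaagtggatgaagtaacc
Col25a1: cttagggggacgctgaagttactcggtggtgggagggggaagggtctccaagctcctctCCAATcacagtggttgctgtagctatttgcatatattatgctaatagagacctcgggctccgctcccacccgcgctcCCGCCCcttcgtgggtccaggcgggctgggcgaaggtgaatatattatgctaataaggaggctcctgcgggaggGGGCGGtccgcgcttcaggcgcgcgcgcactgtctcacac
The Col25a1 region held 1 CCAAT box and 2 GC boxes, and the other 3 regions held none of the 3 motifs. RefSeq start regions were found for 40 of the 55 members (44 regions). In the 250 bases before the start, a GC box was found in 54.5% of these regions (24 of 44) and in 32.7% of all 32851 regions. The TATA box was in 11.4% of member regions and 12.4% of all regions, the CCAAT box in 31.8% and 33.8%. A match is a description of the letters, and motifs were counted separately where they overlapped. The median GC content was 59.0% in member regions and 52.4% in all regions.

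Library totals ran from 3057979 to 4227129 expected counts, and members took between 0.0688% and 0.264% of them. Levels are given as CPM, a gene's count relative to the scaled total of its library, where the 3 counts that a count of 0 allows came to between 0.585 and 1.33 CPM (counting error only). The libraries fell into 2 sets that the labels do not name. In 5 of them, the libraries of mouse 6, the large clones of mice 1 and 2 and the small clones of mouse 3, the genes of odour, pheromone and taste receptors (chemoreceptors) took 7.86 to 11.0% of all counts. Their share was 0.841 to 4.17% in the other 7. Processed pseudogenes held 10.2 to 14.8% of counts in the 5 and 2.34 to 6.58% in the 7. The labelled tissue was checked on 13 epithelial markers, of which Krt18 (a simple-epithelium keratin), Ovgp1 (the oviduct glycoprotein) and Epcam (an epithelial adhesion protein) were detected in all 12 libraries. Others of the 13 were missing in some libraries: between 0 and 5 were at 0 counts in a library, with 5 in the small clones of mouse 3. The summed level of the 13 was 4951 to 14672 CPM in the 7 libraries and 707 to 2333 CPM in the 5. Of the 2 libraries of a mouse, 1 was in each set in mice 1, 2 and 3, both were among the 5 in mouse 6, and both were among the 7 in mice 4 and 5.

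Of the 55 chains, 54 had at least 1 count, with Col24a1, a fibrillar chain, at 0 in all 12 libraries. Between 32 and 47 chains were detected in a library and 19 in every library. Compared per kilobase of exon over all libraries, Lamb2 (the laminin beta2 chain) had the highest mean level at 37.5 CPM per kb, and Col26a1 (a short collagen first described in gonads) reached 21.4, Col4a1 (collagen IV alpha1) 20.3 and Col23a1 (a membrane-spanning collagen) 13.7. These 4 kept this order in CPM without the length correction. The place of Col4a1 rests on the large clones of mouse 4, without which Col4a1 averaged 12.6 CPM per kb, below Col23a1 at 14.9. The collagen I chains Col1a1 and Col1a2 reached 2.04 and 2.33 CPM per kb and Col3a1 (collagen III) 2.64. Per kilobase, the member with the highest level was Lamb2 in 4 of the 7 libraries, Col4a1 in the large clones of mouse 4, and Col26a1 in all 5 libraries with a high chemoreceptor share.

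**Figure D1:**
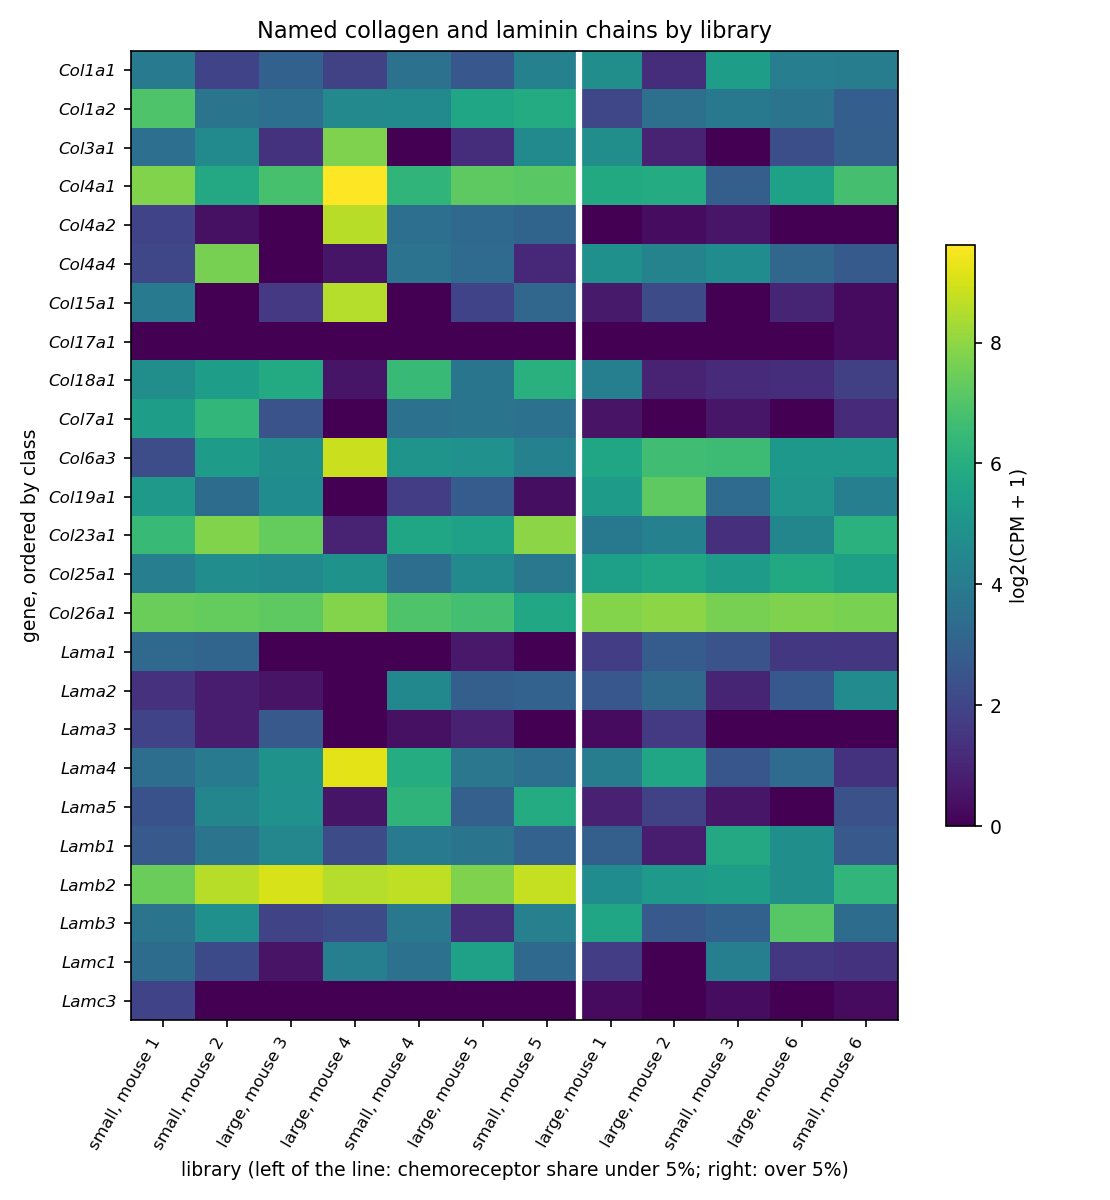
Level of 25 named collagen and laminin chains (rows, grouped by class) in the 12 libraries (columns), as log2(CPM + 1) by colour. The white line divides the 7 libraries with a chemoreceptor share under 5% from the 5 over it. Lamb2 is brighter in every library on the left (174 to 529 CPM) than on the right (24.8 to 80.3 CPM), and Col4a2, Col15a1 and Lama4 are brightest in the large clones of mouse 4.

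Among the laminins, Lamb2 had the highest mean level per kilobase. It ran from 24.8 through a median of 126 to 529 CPM in large clones and from 39.7 through 281 to 438 CPM in small clones. The clone sizes overlapped over most of this range. Lama3 and Lamb3, chains of the laminin that anchors epithelia, were lower: per kilobase over all libraries Lamb3 averaged 3.62 and Lama3 0.0963 CPM per kb, against 37.5 for Lamb2. Lama3 had between 0 and 13 counts and was detected in 7 of 12 libraries. Lamb3 was highest in the large clones of mouse 6 (709 counts, 138 CPM) and was at most 49.0 CPM elsewhere. Lamc1, the gamma chain of most laminins, averaged 1.18 CPM per kb and Lamb1 1.42.

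Per kilobase over all libraries, each alpha chain was lower than Lamb2. Lama4, the alpha chain of blood vessel and mesenchymal basement membranes, averaged 5.67 CPM per kb, and 73.3% of its summed CPM came from the large clones of mouse 4. Lama5, the main alpha chain under adult epithelia, ran from 0 through 1.72 to 28.0 CPM in large clones and from 0.496 through 12.4 to 75.5 CPM in small clones. The small clones of mice 4 and 5 (75.5 and 58.8 CPM) were the highest, and the clone sizes overlapped. Lama2, known from muscle and nerve, reached 8.95 CPM among large clones and 24.0 CPM among small clones. Lama1 reached at most 8.86 CPM and was at 0 in 4 libraries. Lamc3 had 12 counts in all, 9 of them in the small clones of mouse 1.

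Collagen IV was represented mainly by Col4a1. Its level was 44.8, 86.2 and 785 CPM (lowest, median, highest) in large clones and 6.45, 93.3 and 219.5 CPM in small clones. The value of 785 CPM (1768 counts) belonged to the large clones of mouse 4, the next highest library had 219.5 CPM, and the groups overlapped. Col4a2, whose product assembles with that of Col4a1, had 858 counts (381 CPM) in that same library and 0 to 31 counts in the other 11. The 2 genes start head to head, 21 bases apart in RefSeq, and overlap in the table, and whether counting used strand is not given in the sources used here. Col4a4, of the collagen IV network known from kidney and lung, had 567 counts (198 CPM) in the small clones of mouse 2 and at most 27.6 CPM elsewhere. Its neighbour Col4a3, 71 bases away, had 1.05 CPM in that library.

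Col18a1 and Col15a1 are collagens attached to basement membranes, Col7a1 forms the fibrils that anchor them, and Col17a1 is part of the hemidesmosome, the junction of basal epithelial cells. Col18a1 ran from 0.444 through 6.86 to 57.3 CPM in large clones and from 1.24 through 32.9 to 90.1 CPM in small clones. Col7a1 ran from 0 through 0.212 to 12.1 CPM in large clones and from 0.496 through 11.1 to 80.8 CPM in small clones. Its highest values came from the small clones of mouse 2 and of mouse 1, and the clone sizes overlapped. Col17a1 had 1 count, in the small clones of mouse 6, and 0 in the other 11 libraries. Col15a1 had 847 counts (376 CPM) in the large clones of mouse 4, which is 91.8% of its summed CPM, and at most 14.9 CPM elsewhere.

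Fibrillar chains were present in all 12 libraries at a lower level than basement membrane chains. The 11 fibrillar chains summed to 40.8, 87.7 and 280.3 CPM (lowest, median, highest) in large clones, with a mean of 113 ± 85.1 (SD, n = 6), and to 67.0, 101 and 216 CPM in small clones, with a mean of 112 ± 54.4 (SD, n = 6). The 6 collagen IV and 11 laminin chains summed to 235, 549 and 2183 CPM in large clones, mean 856 ± 788 (SD, n = 6), and to 171, 874 and 1237 CPM in small clones, mean 772 ± 434 (SD, n = 6). For both classes the difference between the means was smaller than the spread within either clone size. Without the large clones of mouse 4, the mean of the large clones was below that of the small clones in both classes. It was 590.3 ± 497 CPM (SD, n = 5) for basement membrane chains, where the difference stayed smaller than either spread. For fibrillar chains it was 79.2 ± 25.1 CPM (SD, n = 5). That difference exceeded the SD of the remaining large clones but not the SD of the small clones. Per kilobase, the basement membrane sum exceeded the fibrillar sum in all 12 libraries, from 1.80 times in the small clones of mouse 3 to 45.6 times in the large clones of mouse 3. The log2 ratio of fibrillar to basement membrane CPM averaged -2.64 ± 1.41 (SD, n = 6) in large and -2.60 ± 1.30 (SD, n = 6) in small clones.

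**Figure D2:**
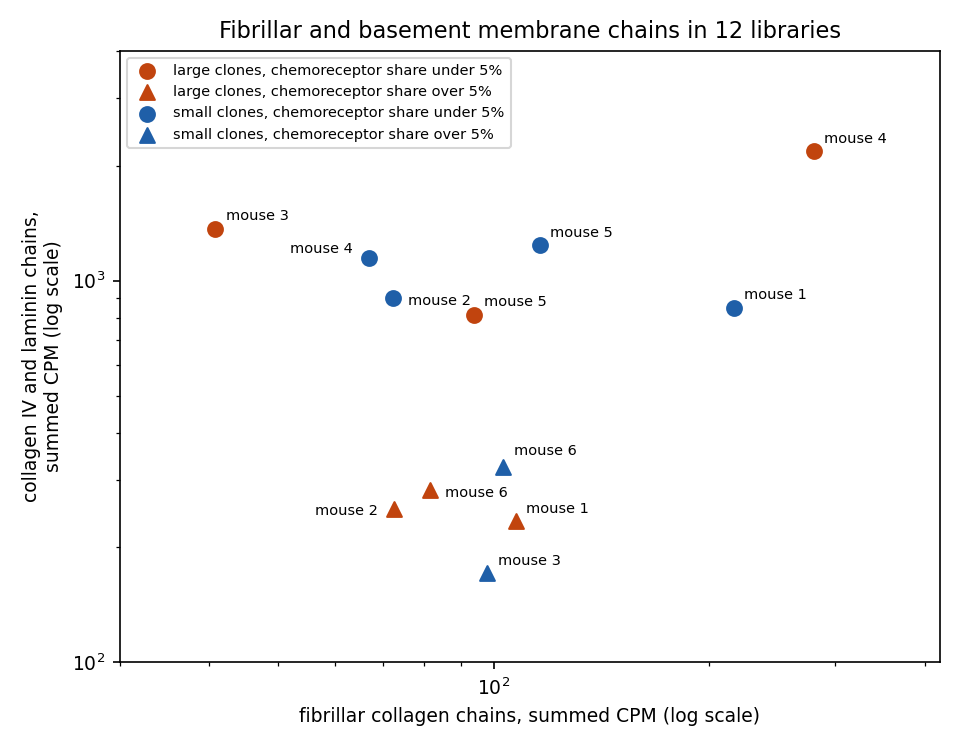
Summed CPM of the 11 fibrillar collagen chains (horizontal, log scale) and of the 17 collagen IV and laminin chains (vertical, log scale) in each of 12 libraries, 1 point per library, coloured by clone size and labelled by mouse. Triangles, the 5 libraries with a chemoreceptor share over 5%, lie at 171 to 325 CPM of basement membrane chains and circles at 815 to 2183 CPM, while the fibrillar sums of the 2 sets overlap.

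The chains of collagen I and III had their highest values in different libraries. Col1a2 (collagen I alpha2) ran from 3.18 through 11.3 to 49.2 CPM in large clones and from 6.30 through 18.5 to 125 CPM in small clones, with the highest value in the small clones of mouse 1. Col1a1, whose product joins that of Col1a2 in collagen I, ran from 1.41 through 6.03 to 25.7 CPM in large clones and from 2.80 through 15.1 to 40.9 CPM in small clones, with the highest value in the small clones of mouse 3. In that library Col1a2 had 13.9 CPM, and in the small clones of mouse 1 Col1a1 had 14.9 CPM. Col3a1 ran from 0.942 through 2.77 to 215 CPM in large clones and from 0 through 8.48 to 22.9 CPM in small clones. The 215 CPM (484 counts) came from the large clones of mouse 4, and 2 libraries of small clones had 0 counts. Col27a1, a fibrillar chain of cartilage and other tissues singled out after its values were seen, was detected in every library at 6.60 to 51.1 CPM, with a median of 27.2 CPM over large clones and 25.2 CPM over small clones.

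The large clones of mouse 4 stood apart from the other 11 libraries in many members. This library also had the fewest genes detected, 12090 against 13877 to 18889 in the other 11, and the fewest chains detected, 32. The part of this in its high values was not tested. Of the 29 chains that passed the filter on low counts, 6 (20.7%) had their highest count there, against 7.15% of all 10848 genes that passed. Col4a1, Lama4 (1354 counts, 601 CPM), Col3a1 and Col6a3 (1045 counts, 464 CPM), which passed the filter, were highest in this library. So were Col4a2 and Col15a1, which did not pass it. Col6a1 (264 counts, not past the filter), Col6a2 (178 counts) and Col22a1 (348 counts), named after their values were seen, were also highest there. Col6a1, Col6a2 and Col6a3 encode the 3 classical chains of collagen VI, and their sum was 661 CPM there and at most 101 CPM in the other 11 libraries. Lamb2, by contrast, had 371 CPM there, within the 174 to 529 CPM of the 7 libraries with a low chemoreceptor share.

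The sums of fibroblast and endothelial markers were also highest in this library. The summed level of 14 fibroblast markers was 2425 CPM there and at most 868 CPM elsewhere, with 5 of the 14 highest there. Gsn (gelsolin) had 3073 counts, Vim (vimentin) 1207 and Dcn (decorin, a proteoglycan of collagen fibres) 631, while Lum, Mfap5, Fbn1 and Postn were at 0. The 10 endothelial markers summed to 399 CPM, against at most 286 CPM elsewhere. Only 1 of the 10 was highest there, Kdr, a receptor of vascular growth factor, at 511 counts, while Cdh5, Tek and Erg were at 0. The 8 smooth muscle markers summed to 268 CPM, within the 19.8 to 311 CPM of the other libraries, and the 8 immune markers to 12.4 CPM with 7 at 0. Epithelial markers summed to 4951 CPM, the lowest of the 7, with Krt18 at 7097 counts, Ovgp1 at 1326 and Cdh1, Cldn4 and Pax8 at 0. Their part in the matrix values of this library was not tested.

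Basement membrane chains, unlike the fibrillar sum, separated the 2 sets of libraries. The sum of collagen IV and laminin was 815 to 2183 CPM in the 7 libraries and 171 to 325 CPM in the 5, with no overlap, also without the large clones of mouse 4 (815 to 1367 CPM). Fibrillar sums were 40.8 to 280.3 CPM and 72.5 to 107 CPM. Within them, Col1a1, Col1a2 and Col3a1 summed to 19.0 to 240 CPM (median 55.6) and 13.0 to 54.8 CPM (median 32.4), with overlap. Medians in the 5 were above those in the 7 for Col27a1 (36.7 and 18.8 CPM) and Col1a1 (16.4 and 7.01 CPM). They were below for Col1a2 (10.6 and 23.1 CPM) and Col3a1 (3.90 and 10.4 CPM). Laminins alone were 624 to 1253 CPM and 134 to 218 CPM, the 4 basement membrane zone collagens (Col7a1, Col15a1, Col17a1 and Col18a1) 27.2 to 377 CPM and 1.74 to 17.8 CPM, and collagen IV alone 113 to 1168 CPM and 36.7 to 149 CPM. Only the last of these 3 ranges overlapped between the sets. The epithelial marker sums given above likewise did not overlap, while fibroblast markers (183 to 2425 and 156 to 235 CPM), endothelial markers (87.4 to 399 and 160.5 to 286 CPM) and immune markers (6.80 to 59.5 and 36.0 to 253 CPM) did. No test was made on sets defined from the data, and the part of chemoreceptor share or epithelial content in these values was not tested.

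Gene by gene, Lamb2 was the one tested chain of 29 with all 7 libraries (174 to 529 CPM) above all 5 (24.8 to 80.3 CPM), a pattern shown by 9.98% of all genes. Col25a1, a membrane-spanning collagen known from neurons, was the one chain with all 5 libraries (38.4 to 56.9 CPM) above all 7 (10.2 to 28.9 CPM), against 8.62% of all genes. The difference, 5 libraries over 7, was taken as the log2 ratio of the mean CPM plus 1 of each set. Its median was -0.89 over the 29 chains and 0.02 over all genes, and 10 of the 29 lay above 0. Being made on means, it can rest on 1 library. Col4a4, at -0.89, had a median of 3.16 CPM in the 7 libraries and 18.6 CPM in the 5. Its mean in the 7 rests on 198 CPM in the small clones of mouse 2. Col22a1 and Col6a3 also lay below 0 with lower medians in the 7 than in the 5. Among the lowest were Col7a1 at -4.05, Col6a2 at -3.57 and Lama5 at -3.45, and the highest were Col19a1 (a fibril-associated collagen) at 2.06 and Lamb3 at 1.82. Col6a2 had 79.1 CPM in the large clones of mouse 4, where its median over the 7 libraries was 5.79 CPM. Chains of longer genes tended to lie higher in this difference: Spearman's rho with the genomic span was 0.50 across the 29 chains and 0.12 across all 10848 genes. This is a description across genes of the same 12 libraries, and genes are not independent replicates.

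Other collagens were among the most widely detected members. Col26a1 was the steadiest of the abundant chains, at 107, 221 and 246 CPM (lowest, median, highest) in large clones and 52.1, 169.6 and 204 CPM in small clones. Col25a1 ran from 22.7 to 56.9 CPM in large clones, with a mean of 37.5 ± 14.7 (SD, n = 6), and from 10.2 to 42.7 CPM in small clones, with a mean of 24.5 ± 13.5 (SD, n = 6). Both were detected in all 12 libraries and overlapped between clone sizes. Col23a1 varied more, from 0.888 through 19.1 to 163 CPM in large and from 1.49 through 79.2 to 248 CPM in small clones. Col19a1 was highest in the large clones of mouse 2 (635 counts, 149.5 CPM) and at 0 in the large clones of mouse 4. Outside that last library, Col6a3 ran from 26.8 to 101 CPM in large and from 3.80 to 95.0 CPM in small clones.

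In these chains, libraries from the same mouse were about as alike as libraries from different mice. Over the 55 chains, Spearman's rho of log2(CPM + 1) between the large and small library of a mouse averaged 0.637 ± 0.122 (SD, n = 6 mice), and 0.624 over the 30 pairs of a large and a small library from different mice. By mouse, from 1 to 6, it was 0.628, 0.543, 0.544, 0.541, 0.832 and 0.735. Over the 29 chains that passed the filter the same-mouse and different-mouse averages were 0.432 and 0.431. Over all 10848 genes that passed it they were 0.596 and 0.509. Pairs within a set of chemoreceptor share averaged 0.696 over the chains (18 pairs) and pairs across the sets 0.555 (18 pairs). These are correlations across genes, given as a description, and pairs share libraries.

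Single chains gave the same picture. Among the 29 chains, 11 (37.9%) had a smaller median gap within a mouse than between mice, against 60.7% of all genes. Between 6 and 16 of the 29 (20.7 to 55.2%) were at least 4-fold apart between the libraries of a mouse, on log2(CPM + 1), and 16.9 to 45.8% of all genes were. Mouse 6, with both libraries in the set of 5, had the fewest such chains and mouse 2 the most. In mouse 3 the large clones had 529 CPM of Lamb2 and the small clones 39.7 CPM, while in mouse 2 the large clones had 36.0 CPM and the small clones 388 CPM. In mice 4 and 5 it had 371 and 216 CPM in large and 409.9 and 438 CPM in small clones. The direction within a mouse followed the set of each library in mice 1, 2 and 3, where the lower library was the one with the high chemoreceptor share. Col1a2 was the nearest within mice of all 29 chains by median gap (0.34 on the log2 scale, 1.51 between mice), although in mouse 1 the large clones had 3.18 CPM and the small clones 125 CPM.

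**Figure D3:**
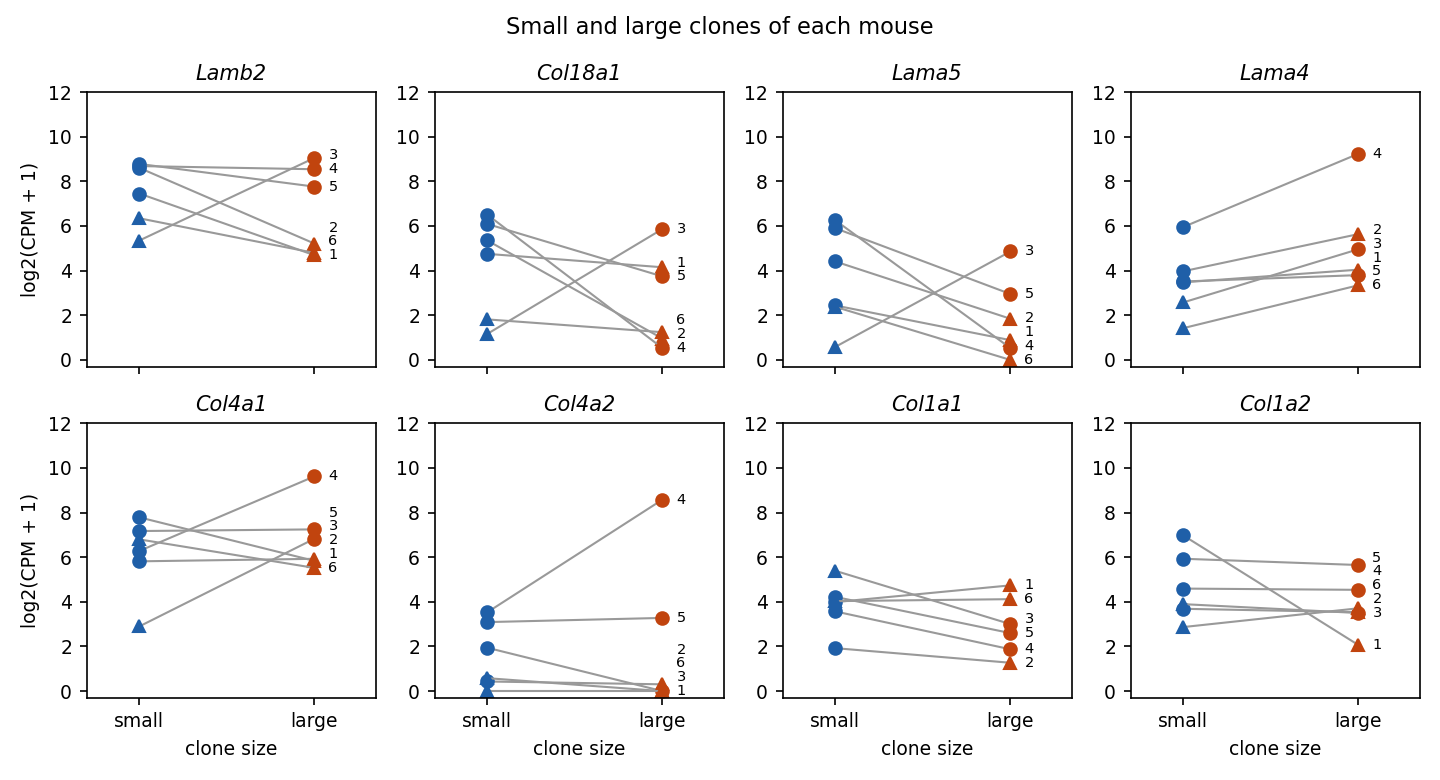
Level of 8 chains, as log2(CPM + 1), in the small (left, blue) and large clones (right, red) of each of 6 mice, with lines joining the libraries of a mouse and the mouse number at the right. Triangles mark libraries with a chemoreceptor share over 5%. Lama4 is higher in large clones in 6 of 6 mice, Lamb2, Col18a1 and Lama5 are lower in large clones in 5 of 6, and Col4a2 stands far above the rest in the large clones of mouse 4.

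Large and small clones were compared to ask whether clone size goes with matrix expression. No chain passed the test. Of the 29 chains tested, 0 passed an adjusted p of 0.05 in edgeR's quasi-likelihood test, where the share called among all 10848 genes was also 0%. Among the adjusted p-values the smallest was 0.9998. Lama4 was the 1 chain with an unadjusted p under 0.05, against 2.54% of all genes. It was higher in large clones, the direction of 1.44% of all genes, while 0 chains and 1.1% of all genes had such a p and were lower. DESeq2 called 0 chains at an adjusted p of 0.05 (0.0461% of all genes) and 2 at an unadjusted p (Col7a1 and Col6a3, 4.93% of all genes), and it gave Lama4 no p. With the mouse as a block, DESeq2 called 0 chains after adjustment (0.387% of all genes) and 7 at an unadjusted p (10.5% of all genes). The median log2 fold change, large over small, was -0.35 over the 29 chains and 0.06 over all genes. In large clones 13 chains were higher and 16 lower, and 53.2% of all genes were higher. No tested chain had large and small libraries that did not overlap, against 0.0645% of all genes.

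Lama4 had 9.16, 22.8 and 601 CPM (lowest, median, highest) in large clones and 1.68, 10.3 and 60.9 CPM in small clones. In mice 1 to 6 in turn the large clones had 15.5, 48.7, 30.1, 601, 12.9 and 9.16 CPM and the small clones 10.1, 14.7, 4.96, 60.9, 10.4 and 1.68 CPM. It was thus higher in large clones in 6 of 6 mice, as were 1.16% of all genes, although the 2 groups overlapped. No tested chain was lower in 6 of 6 mice, against 1.05% of all genes. The log2 fold change was 2.80 (SE 1.18), with an unadjusted p of 0.031 and an adjusted p of 0.9998 in edgeR. With the mouse as a block, the unadjusted p was 0.018 in edgeR and 0.0020 in DESeq2, where 10.5% of all genes were under 0.05. In edgeR it was 0.0025 with the chemoreceptor share as covariate and 0.026 within the 7 libraries. The lowest adjusted p in any setting was 0.141, in DESeq2 with the block. These settings all kept the large clones of mouse 4. Without that library the log2 fold change was 0.44, with an unadjusted p of 0.635 in edgeR, and no chain was then under 0.05 (2.29% of all genes). No chain was under it without mouse 2 (1.7% of all genes) or mouse 4 (1.59%) either. There were 4 such chains without mouse 3 (4.37%) and 5 within the 7 libraries of low chemoreceptor share (4.98%). All 8 tested fibroblast markers were higher in large clones, as were 53.2% of all genes, and 2 of the 8 (Dcn and Pdgfrb) had an unadjusted p under 0.05. Of 7 tested endothelial markers 6 were higher, 1 of them (Kdr) with such a p, where 1.44% of all genes had such a p and were higher. The 11 tested epithelial markers went the other way, with 3 higher and 8 lower. Among 4 immune markers 3 were higher and 1 lower, among 3 smooth muscle markers 2 and 1, and both tested mesothelial markers were higher. These last lists held 0 markers with an unadjusted p under 0.05. No marker of any list had an adjusted p under 0.05, and Kdr and Dcn were highest in the large clones of mouse 4.

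The other named chains had wide errors around their fold changes. Col7a1 had a log2 fold change of -3.07 (SE 1.55), Lama5 -2.09 (SE 1.37), Col4a4 -1.92 (SE 1.34), Col23a1 -1.38 (SE 1.05) and Col18a1 -1.35 (SE 1.21). On the other side stood Col3a1 at 1.99 (SE 1.54), Col19a1 at 1.78 (SE 1.21), Col6a3 at 1.68 (SE 0.88) and Lamb3 at 1.22 (SE 1.05). Without the large clones of mouse 4, Col3a1 and Col4a1 changed sign, from 1.99 to -0.64 and from 0.98 to -0.27. The value of Col6a3 was 0.38 without that library. Without mouse 2, Col4a4 was at -0.02, Col19a1 at 0.64 and Col7a1 at -1.95. Without mouse 4, Lama5 was at -1.25 and Col18a1 at -0.67, and without mouse 6 Lamb3 was at -0.20. The abundant chains Lamb2 and Col26a1 had -0.35 (SE 0.84) and 0.35 (SE 0.45). The coefficient of biological variation over all genes was 115%, so that differences of several-fold lay within the spread between libraries, and the missed threshold does not show equal levels.

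**Figure D4:**
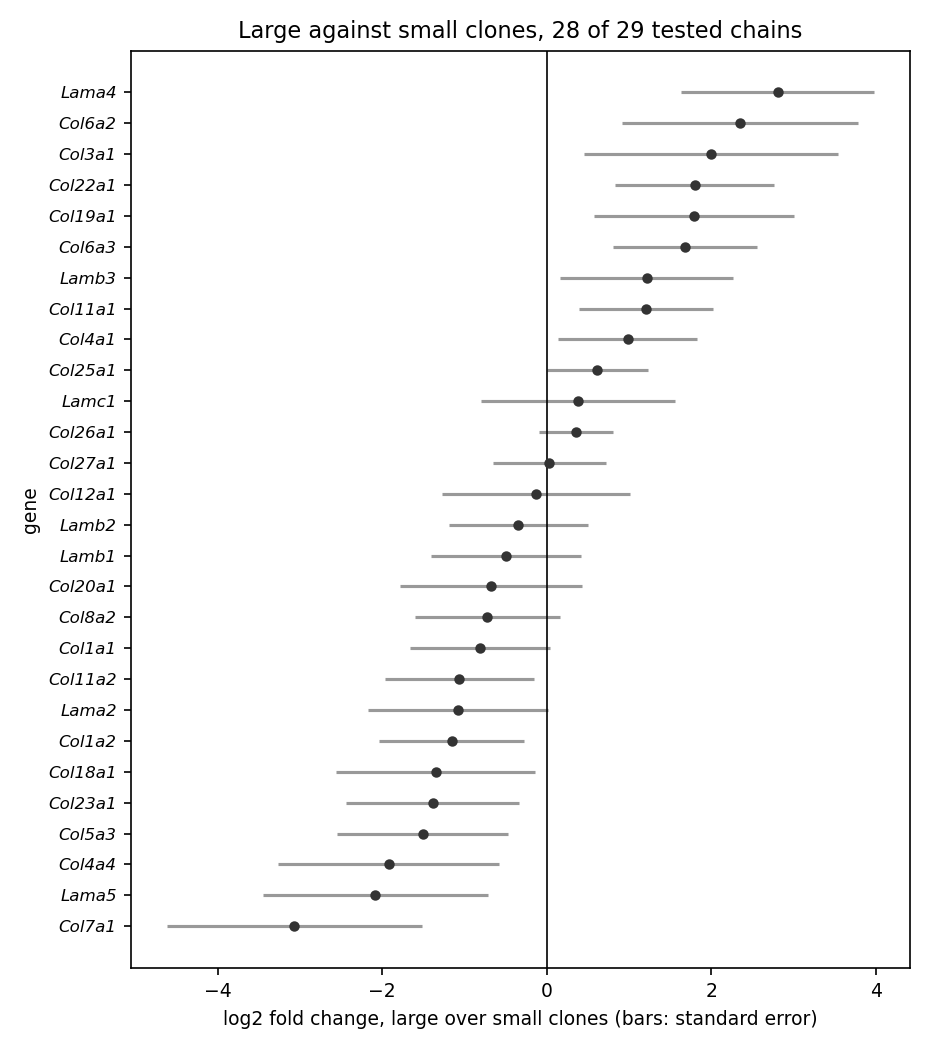
Log2 fold change, large over small clones, of 28 of the 29 collagen and laminin chains that passed the filter (points, ordered by value) with the standard error from edgeR (bars). Values run from -3.07 for Col7a1 to 2.80 for Lama4, and none of them had an adjusted p under 0.05.

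No gene that makes, binds or cuts these chains passed the adjusted threshold either. Of 29 genes of collagen synthesis and crosslinking, 17 were tested, 8 higher and 9 lower in large clones, with 0 past the adjusted threshold. The most abundant was Ppib, a folding enzyme of the endoplasmic reticulum, at 29.1, 90.9 and 347 CPM in large and 46.9, 362 and 482 CPM in small clones, overlapping, followed by P4hb, a subunit of the enzyme that hydroxylates proline in collagen. P4ha1, the catalytic subunit of that enzyme, had 1.97, 8.07 and 23.1 CPM in large and 5.04, 37.4 and 103 CPM in small clones, with overlap. Its log2 fold change was -2.09 (SE 0.86), with an unadjusted p of 0.029 and an adjusted p of 0.9998 in edgeR, lower in large clones in 5 of 6 mice. Both Ppib (118 to 482 and 29.1 to 63.8 CPM) and P4hb (42.2 to 297 and 0.195 to 28.2 CPM) were higher in all 7 libraries with a low chemoreceptor share than in all 5 others, as were 9.98% of all genes. Lox, which crosslinks fibrillar collagen, reached at most 1.56 CPM and was named after its values were seen.

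Of 12 basement membrane partners 6 were tested, 3 in each direction, and of 13 collagen and laminin receptors 8 were tested, 2 higher and 6 lower, with 0 at an unadjusted p under 0.05 in either list. Sparc, a protein that binds collagen IV, was highest in the large clones of mouse 4 (427 CPM, 962 counts), and Agrn (agrin, a proteoglycan that binds laminin) ran from 0 to 101 CPM in large and from 1.05 to 297 CPM in small clones. Bcam, a receptor of laminin alpha5, ran from 0.444 to 189.6 CPM in large and from 1.47 to 149 CPM in small clones, and Itga1, an integrin chain of collagen receptors, from 22.3 to 67.1 and from 7.48 to 52.6 CPM. All of these overlapped between clone sizes. Of 12 genes of matrix turnover 8 were tested, 5 higher and 3 lower. Timp3, a protease inhibitor held in the matrix, had 5.52, 23.6 and 47.1 CPM in large and 3.15, 8.16 and 9.55 CPM in small clones, with a log2 fold change of 1.71 (SE 0.70), an unadjusted p of 0.029 and an adjusted p of 0.9998 in edgeR, higher in 5 of 6 mice. The related inhibitors Timp4 and Timp2 had log2 fold changes of 0.07 (SE 0.63) and 0.20 (SE 0.98).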

How the data were processed

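RNA was measured in 12 libraries, 6 of large and 6 of small clones, 1 of each per mouse. The deposited table, 1 for the whole series, holds expected counts, which the authors made with RSEM and Bowtie2 on build GRCm38, per the submitters' processing notes, which give no versions. Of the entries 22.7% were not whole, and all were rounded. The table's own coordinates are of another build: 2.96% of 35491 gene identifiers shared with GENCODE M21 had the same chromosome and start, so only distances between genes are given from it. Whether counting used strand and which annotation served are not given in the sources used here. Amplification from poly(A) may favour transcript ends, which affects levels per kilobase, and amplified copies of a molecule could not be told apart.

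All genes entered edgeR 4.0.16 (R 4.3.3) and its quasi-likelihood test, with TMM scaling, the filterByExpr filter (10848 genes) and Benjamini-Hochberg adjustment, with clone size as the only term. A chain could pass the filter through the clone size where it was higher. DESeq2 1.42.0, a mouse block, other scalings and filters, the chemoreceptor share as covariate, the 7 libraries with a share under 5%, and omission of each mouse were alternatives. Omission of the large clones of mouse 4, and agreement of libraries within the 7, were chosen after seeing the data. Exon lengths are of GENCODE M21. Pairing rests on the labels, in which a number stands for 1 mouse. The deviations of a mouse's libraries from their group means correlated at -0.019, -0.007, -0.378, 0.281, 0.521 and 0.635 for mice 1 to 6 over all genes. P-values of the main fit measure the spread between the 6 libraries within each clone size. They do not use the pairing of the 2 libraries of a mouse, which only the alternatives with a mouse block do.

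The members and the lists were chosen with earlier results of these data known. Genes named were the collagen I, III, IV alpha1 and alpha2, VII, XVII and XVIII chains and the laminins, the 15 chains with the highest mean CPM, chains with an unadjusted p under 0.05 and, of each pathway list, the 2 highest genes and any under that p; others are said to be chosen after their values were seen. A chain named by this rule is not reported here. Mesothelial markers summed to 117 to 395 CPM in large and 73.7 to 348 CPM in small clones. The fit was first tested on simulated data. Plots were made in matplotlib 3.10.9.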

Additional observations from a re-analysis of the deposited data

Results flagged for a closer look

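In groups of 6 libraries, the highest or lowest library lay far from the others in 8 of 66 groups searched. The measure is that library's gap to the nearest library divided by the whole range, with a limit of 0.625. Chance would give about 3.3 if the groups were independent and normally spread. They share counts, and a lone count among libraries at 0 always gives a share of 1.0, so the 8 cannot be set against that number. In the large clones of mouse 4 this share was 0.803 for Col15a1 (8.56 on the log2(CPM + 1) scale, others 0.71 to 2.25), 0.663 for the collagen IV sum (10.19 on the log2 scale, others 6.00 to 7.42) and 0.726 for the percentage of counts on all members (0.264%, others 0.0945 to 0.141%). The fibroblast marker sum was also highest in this library, and its part was not tested.

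Among the small clones, Col23a1 was low in mouse 3 (share 0.662, 1.32 on the log2(CPM + 1) scale, others 5.71 to 7.96), and Col26a1 was low in mouse 5 (share 0.631, 5.73, others 6.96 to 7.68). The remaining 3 rest on 9 counts or fewer: Lamc3 in the large clones of mouse 1 (share 1.0) and the small clones of mouse 1 (share 0.836), and Col17a1 in the small clones of mouse 6 (share 1.0).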

How the results depend on the processing

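The count of 0 chains at an adjusted p under 0.05 held in all 15 alternatives run. Over all genes, edgeR called 0 in every alternative, the mouse block included, and DESeq2 called 5, or 42 with the replicate block, none of them a chain. With the block, the log2 fold change of Lama4 was 1.84. Signs of single chains depended on the setting, with the cause not tested. With 1 mouse left out, Col3a1 ran from -0.89 (without mouse 4) to 2.65 and Col4a1 from -0.35 (without mouse 4) to 1.47, and without only the large clones of mouse 4 they were at -0.64 and -0.27. In the 7 libraries Col19a1 was at -0.43, Lamb1 at 0.26, Lamb2 at 0.015 and Lamb3 at -2.82. With the replicate block Lamb3 was at -0.81 and Lamc1 at -1.23 in edgeR, and at -0.80 and -1.30 in DESeq2. With the chemoreceptor share as covariate Lamb3 was at -1.21. Likewise Lamb1 ran from -1.21 to 0.15 (without mouse 3), Lamb3 from -0.20 (without mouse 6) to 1.71 and Lamc1 from -0.99 (without mouse 5) to 0.94. Large minus small of the log2 ratio of fibrillar to basement membrane chains was -0.05, and -0.42 to 0.79 with 1 mouse left out. The same-mouse minus different-mouse correlation was 0.013, and -0.030 to 0.051 with 1 mouse left out. At these depths, chains under about 3 counts could not be told from 0.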
